A study of Mus musculus with 6 samples.

Results

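Genes of channel proteins that join cells or open to the outside were followed in mouse lung endothelial cells, namely the connexins Gja1, Gja4, Gja5 and Gjc1 and the pannexin Panx1. They were chosen by symbol, 5 rows of the 23345 genes in the deposited table, and Panx1 was chosen because its values in the high-fat diet libraries lay near zero. The values of Panx1 are therefore a description with no test. The connexins were taken by family, but with earlier results of these data known. The cells came from lungs of C57BL/6JOlaHsd mice fed a normal diet (ND; mice 1, 3 and 4) or a high-fat diet (HFD; mice 2, 4 and 5). Each diet was given for 12 weeks to 3 mice, and mouse 4 of each diet is a different animal. The sources used here state neither the age of the mice nor what the diets contained. All 6 lung suspensions were plated, cleared of cells bearing CD16/CD32, which are mostly white blood cells, enriched on ICAM-2 beads and plated again on collagen I, so that the RNA came from cells that had been in culture. Each library was made from 500 cells. The unit is the normalized count, a read count per gene scaled by the authors with 1 factor for each library.

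Connexins assemble into channels in the membrane, and channels of adjoining cells dock end to end to form gap junctions, through which ions and small molecules pass from cell to cell. In blood vessels such coupling carries electrical and calcium signals along the endothelium and between the endothelium and smooth muscle. Pannexin 1 forms large-pore channels that are not usually docked between cells and that release ATP, which then acts on purinergic receptors of nearby cells.

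The depth was 13.8 to 17.2 M reads in the ND libraries and 18.8 to 27.9 M reads in the HFD libraries, so every HFD library was deeper than every ND library. The endothelial label was checked against its markers. All 12 pan-endothelial markers passed the filter on low values, and Icam2, the selection marker, ranged from 14073 to 25569 normalized counts. Of the depleted receptors, CD16 (Fcgr3) was at 0 reads except in ND 4 and HFD 2, at 137 and 103 normalized counts. ND 3 stood apart by its epithelial markers, which summed to 105086 normalized counts there and to 3895 to 20122 in the other libraries. Its macrophage, monocyte and granulocyte markers were also highest, at 6652 against 261 to 931 in the other libraries, with Lyz2 at 6388. In bulk RNA of this kind, fewer cells of a type and less RNA per cell cannot be told apart.

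Of 20 connexin and 3 pannexin genes of the mouse that were looked up, 13 had a row in the table. The 5 members and Gjc3 had a mean of at least 10 normalized counts, the filter used for testing. Gjb2, Gjd2, Gjd4, Gje1, Panx2 and Panx3 stayed below it, and the highest value of these 6 genes in any library was 8.05 normalized counts, for Panx2 in HFD 4. Panx1 was thus the single pannexin above the filter, which it passed through its ND values alone. Its mean was 106 normalized counts in ND and 1.61 in HFD, where the mean of Panx2 was 4.70. Gjc3, a connexin best known from myelinating glia, had 11.8, 26.7 and 29.7 normalized counts in ND 1, ND 3 and ND 4. The HFD values, 25.2, 24.96 and 15.8 in HFD 2, HFD 4 and HFD 5, lay within the ND range.

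The regions before the start sites of Panx1 and Gja4 are shown because these were the members whose diets did not overlap. Each sequence holds the 250 bases before the annotated start in RefSeq (GRCm38.p6), written 5′ to 3′ on the gene's strand, at chr9:15045479-15045728 (minus strand) for Panx1 and chr4:127314040-127314289 (minus strand) for Gja4. Capitals mark motif matches, an ETS core in Panx1 and a GC box in Gja4.
Panx1: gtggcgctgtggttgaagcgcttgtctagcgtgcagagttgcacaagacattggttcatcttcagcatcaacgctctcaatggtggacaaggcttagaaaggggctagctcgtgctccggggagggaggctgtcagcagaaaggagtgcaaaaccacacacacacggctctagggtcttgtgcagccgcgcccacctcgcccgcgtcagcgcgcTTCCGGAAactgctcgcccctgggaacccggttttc
Gja4: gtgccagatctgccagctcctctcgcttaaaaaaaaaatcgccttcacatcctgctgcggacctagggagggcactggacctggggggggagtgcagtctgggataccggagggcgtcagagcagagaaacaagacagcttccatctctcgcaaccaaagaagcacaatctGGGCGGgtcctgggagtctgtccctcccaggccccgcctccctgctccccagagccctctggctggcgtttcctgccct

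The capitals mark matches to 3 motifs, searched on both strands. The core letters of the ETS factors, CCGGAA, occurred in Panx1 on both strands in overlapping positions, which together make the capital run. Of 32817 windows of the same length, 12.0% held this motif. The GC box, GGGCGG, occurred once in Gja4 and once in Gja5, against 32.7% of all windows. The AP-1 letters, TGANTCA, occurred once in Gja1, against 6.75%. The G and C content was 59.6% for Panx1 and 61.2% for Gja4, with a median of 52.4% over all windows. RefSeq windows were matched for 4 members, and a match describes letters only.

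Panx1 encodes the channel protein itself and showed the widest gap between the diets of the 5 members, as its selection fixes. It had 138, 52.4 and 127 normalized counts in ND 1, ND 3 and ND 4, from 117, 49 and 107 reads. In the HFD libraries it had 0.971, 2.42 and 1.44 normalized counts in HFD 2, HFD 4 and HFD 5, from 1, 3 and 2 reads. Every HFD library lay below every ND library, although the HFD libraries were the deeper ones. Since 273 ND reads stood against 6 HFD reads, the fold is given as a ratio of reads scaled by the size factors, which was 63.5 for ND over HFD, with a 95% exact counting interval of 28.8 to 174. Left out in turn, single libraries moved this ratio between 53.6 (without ND 1) and 83.9 (without HFD 4), and it was 80.9 without ND 3. The protocols mention no molecular identifiers, and PCR copies are not independent, so such intervals cover counting error only and leave out the spread between mice.

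The 3 ND values of Panx1 differed among themselves by 2.64 times from lowest to highest, and their mean was 106 ± 46.7 (SD, n = 3). The HFD mean was 1.61 ± 0.737 (SD, n = 3), a level of 1 to 3 reads at which the libraries cannot be ranked. Panx1 lies on chromosome 9 from 15002128 to 15045478 on the minus strand of GRCm38 in the GENCODE M21 annotation. It is protein coding, with 6 exonic blocks and 6030 exonic bases, of which 0 are shared with another annotated gene. No reads of an overlapping gene could therefore add to its value in that annotation.

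The same near-absence was looked for across the table, with limits set after the Panx1 values were seen. A total of 4 genes, 0.0171% of all rows, had 3 reads or fewer in every HFD library and at least 50 normalized counts in every ND library. These were Btnl9, Gm13556, Panx1 and Zfp128, and all but Panx1 were named after their values were seen. The mirror pattern, near-absence in every ND library, was met by 8 genes or 0.0343%. As Panx1 was chosen by this contrast, nothing is read from its place among them.

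Low libraries were common around the mean of Panx1 over all 6 libraries, 53.7 normalized counts, which its near-zero HFD values lower. Of 3399 genes with a mean of 25 to 100 normalized counts, 1741 or 51.2% had 3 reads or fewer in at least 1 library. In 359 of them exactly 3 libraries were that low, and these 3 were all HFD for 18 genes, Panx1 among them, all ND for 19 genes and of both diets for 322 genes. Near-absence in some libraries was thus frequent at this level. Most ways to pick 3 of the 6 libraries mix the diets, so these counts cannot tell whether low values followed diet. Nothing about Panx1 is read from them.

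**Figure D1:**
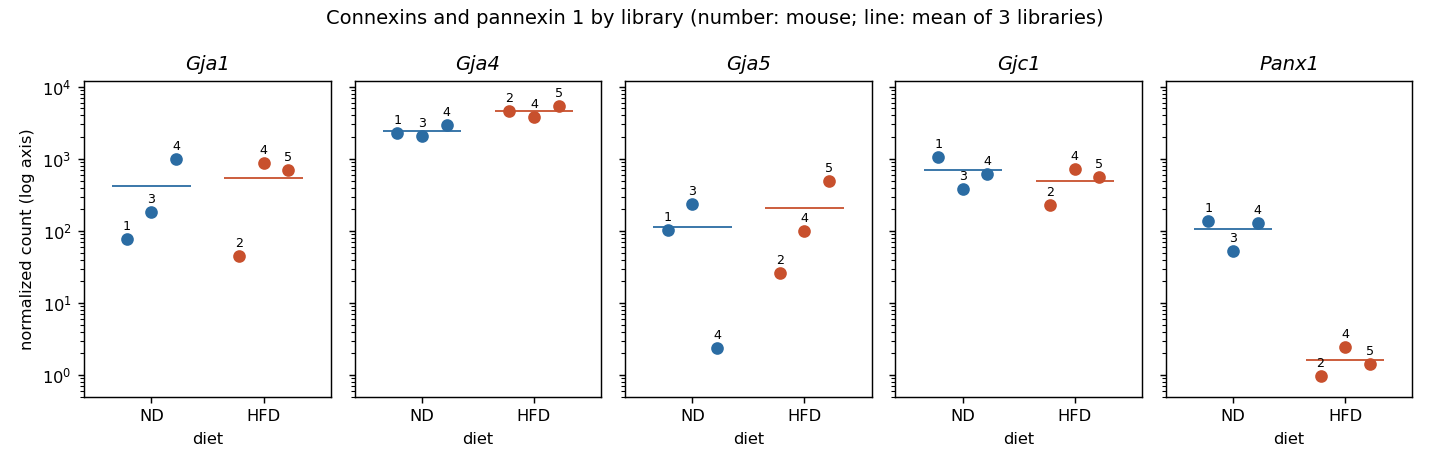
Normalized counts (log axis) of the 5 members in the 3 ND and 3 HFD libraries, where a point is a library, its number is the mouse and the line is the mean of the diet. The HFD points of Gja4, at 3845 to 5335, lie above all its ND points, those of Panx1, at 0.971 to 2.42, lie below all its ND points, and the diets overlap for Gja1, Gja5 and Gjc1.

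Gja4 encodes connexin Cx37, a gap junction protein of arterial endothelium, and it was the most abundant and most even member. It had 2269, 2093 and 2973 normalized counts in ND 1, ND 3 and ND 4. In the HFD libraries 2, 4 and 5 it had 4595, 3845 and 5335. All HFD libraries were higher than all ND libraries. The mean was 2445 ± 466 in ND and 4592 ± 745 in HFD (SD, n = 3), and the log2 fold change was 0.91 ± 0.25 (SE). In the limma test over 15655 genes the adjusted p was 0.494, so the difference did not pass, and leaving out single libraries gave log2 fold changes of 0.80 to 1.06. With Panx1, Gja4 made 2 of 5 members without overlap between the diets, against 14.1% of all tested genes, a count that the choice of Panx1 takes part in and from which nothing is read.

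The summed level of the markers of endothelium as a whole was also higher in HFD, although its genes did not all go one way. The 12 pan-endothelial markers summed to 136657 to 174754 normalized counts in ND and 175923 to 210619 in HFD, and this was the single marker list of 12 whose summed level did not overlap between the diets. Of the 12 genes, 9 had a log2 fold change above 0 and 3 below, and 0 passed limma. Without overlap, 5 were higher and 1 lower, against 8.12% and 5.93% of all tested genes. The lower one was Kdr, the main VEGF receptor of endothelium, with 15953, 24204 and 16816 normalized counts in ND and 15498, 15363 and 12875 in HFD, and Cdh5 (−0.38 on the log2 scale) and Erg (−0.23) were the others below 0. Per 1000 pan-endothelial counts, Gja4 had 15.4, 12.0 and 21.8 in ND 1, ND 3 and ND 4. On that scale it had 26.1, 20.3 and 25.3 in HFD 2, HFD 4 and HFD 5, so that ND 4 lay above HFD 4 and the diets overlapped. The log2 difference between the diets was then 0.58 in place of 0.91. Arterial markers other than connexins had summed levels of 22048 to 23972 in ND and 20960 to 26316 in HFD, which overlapped. Lymphatic endothelial markers summed to 15115 to 33871 in ND and 4946 to 16249 in HFD, which overlapped too. Of their 8 tested genes, 2 were without overlap and lower in HFD and 0 without overlap and higher, against the same 5.93% and 8.12%. Mural markers, those of smooth muscle and pericytes, which can also carry Cx37, summed to 2231 to 8339 in ND and 1804 to 2616 in HFD. Whether the share of endothelial cells, or the mix of their types, takes part in the Gja4 difference was not tested.

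**Figure D2:**
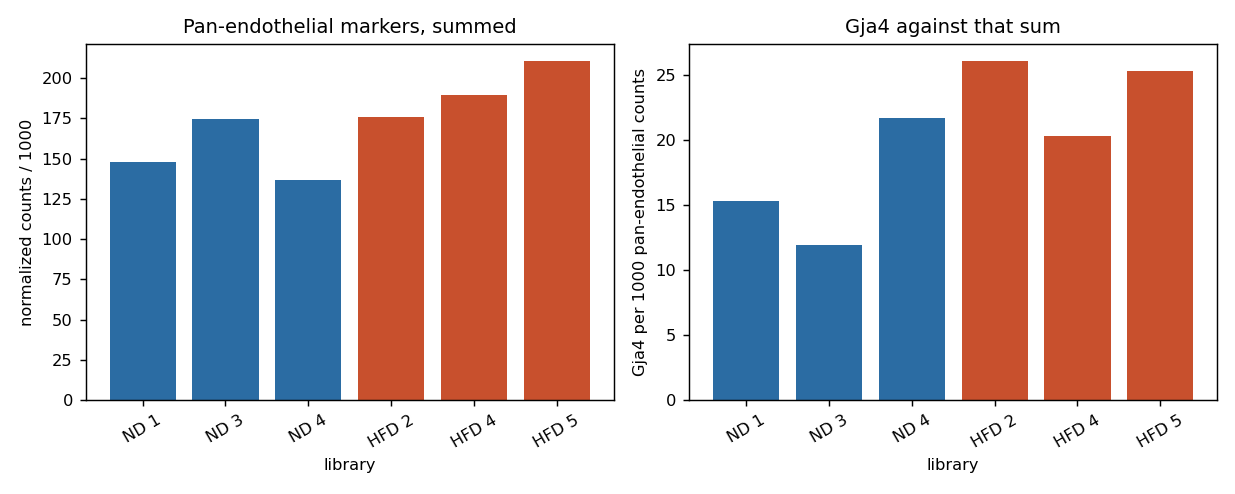
Left, summed normalized counts of 12 pan-endothelial markers divided by 1000, and right, Gja4 per 1000 of those counts, with a bar per library (blue ND, orange HFD). All 3 HFD bars of the marker sum exceed all 3 ND bars, and on the scale of that sum ND 4, at 21.8, lies above HFD 4, at 20.3.

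Gja4 lies on chromosome 4 from 127311421 to 127314039 on the minus strand, with 2 exonic blocks and 1685 exonic bases, of which 0 are shared with another gene. Gjc1 lies on chromosome 11 from 102799579 to 102819700 (minus strand) and Gja1 on chromosome 10 from 56377330 to 56402513 (plus strand), each with 0 shared exonic bases. Gja5 lies on chromosome 3 from 96904693 to 97077416 (plus strand) and shares 165 of 5746 exonic bases with Gpr89 on the opposite strand. The sources used here do not say whether counting used strand.

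Gja5 encodes Cx40, the usual partner of Cx37 in arterial endothelium. It had 103, 239 and 2.38 normalized counts in ND 1, ND 3 and ND 4. Under HFD the values were 26.2, 99.9 and 495 in HFD 2, HFD 4 and HFD 5. The value in ND 4 came from 2 reads, while Gja4 had its highest ND value in that same library. The HFD values spanned 18.9 times from lowest to highest and the diets overlapped. The log2 fold change was 1.34 ± 1.77 (SE; limma adjusted p = 0.885), and it was −0.51 without ND 4 and 0.26 without HFD 5. The mean log2 level of the arterial markers was 10.3 in ND 4, within the 10.1 to 10.6 of the other libraries. Its genes went both ways in ND 4. Hey1 was at its lowest there, at 1856 normalized counts against 1988 to 3867 elsewhere. Jag1 was at its highest, at 1435 against 299 to 1128. Whether the share of arterial cells takes part in the Gja5 values was not tested.

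Gja1 encodes Cx43, the most widely expressed connexin, which in lung capillaries passes calcium waves between endothelial cells. It had 76.8, 184 and 1000.2 normalized counts in ND 1, ND 3 and ND 4. Mice 2, 4 and 5 of the HFD group had 44.7, 884 and 709. The spread lay within the diets, with 3 high libraries (ND 4, HFD 4 and HFD 5) and 3 low ones. The log2 fold change was 0.33 ± 1.37 (SE; limma adjusted p = 0.972), and its sign turned without ND 1 (−0.49), without HFD 4 (−0.43) and without HFD 5 (−0.27), while it was 0.13 without ND 3.

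Other cell types that carry Cx43 were looked at beside Gja1. Fibroblast markers summed to 1222, 1847 and 1704 normalized counts in ND 4, HFD 4 and HFD 5, where Gja1 was high. They summed to 4077, 8578 and 5706 in ND 1, ND 3 and HFD 2, where Gja1 was low. The fibroblast list was thus lower in the libraries with more Gja1. Venous endothelial markers summed to 8545, 16765 and 11248 in the high libraries and to 9022, 14733 and 10484 in ND 1, ND 3 and HFD 2, which overlapped. Both lists were picked out of 12 after their values were seen. Within the venous list, Ackr1, a chemokine-binding receptor of venules, had 150 normalized counts in ND 4, 161 in HFD 5 and 0 in the other 4 libraries. Nr2f2, of the same list, had 707, 565 and 210 in ND 4, HFD 4 and HFD 5. It had 1441, 1208 and 582 in ND 1, ND 3 and HFD 2, which overlapped. The venous genes thus did not share a single pattern. The part of any of these cells in the Gja1 values was not tested.

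Gjc1 encodes Cx45, a connexin of vascular smooth muscle, pericytes and early vessels. It had 1076, 386 and 615 normalized counts in ND 1, ND 3 and ND 4. The HFD libraries 2, 4 and 5 had 227, 712 and 562. HFD 2 was the lowest and ND 1 the highest, with the rest intermingled. The log2 fold change was −0.50 ± 0.59 (SE; limma adjusted p = 0.872), and it was −0.01 without HFD 2, −0.12 without ND 1 and −0.85 without ND 3. The mural list, whose genes share cells with Cx45, summed to 6266, 8339 and 2231 in ND 1, ND 3 and ND 4. In HFD 2, HFD 4 and HFD 5 it summed to 1859, 2616 and 1804, an order that differed from that of Gjc1 since ND 3 had the highest mural sum and the second lowest Gjc1. Mural genes differed among themselves in ND 4 and HFD 2, where Gjc1 had 615 and 227 normalized counts. Acta2, the smooth muscle actin, had 0 reads in both, and Cnn1 had 3.56 and 4.86 normalized counts. Rgs5 had 675 and 218 there, and Myl9 had 399 and 722. The part of mural cells in the Gjc1 values was not tested.

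Levels of different genes were compared per exonic length, as RPKM, the reads per kilobase of exon scaled to the depth of the library. Gja4 came first in every library, at 66.3 to 158 RPKM, and Gjc1 second in every library, at 2.49 to 10.6. Gja4 made up 84.8% to 98.0% of the summed per-length level of the 4 connexins, and Gjc1 1.63% to 13.6%. Below them the order changed between libraries. Gja1 ranged from 0.238 to 5.97, Gja5 from 0.0253 to 4.29 and Panx1 from 0.00882 to 1.29, and these 3 ranges overlapped one another. Gjc1 and Gja1 overlapped in range too, yet Gjc1 was above Gja1 within each library on this scale. That order rests on the annotated exonic lengths, 10257 bases for Gja1 and 5003 for Gjc1. In normalized counts Gja1 was above Gjc1 in ND 4 (1000.2 against 615), HFD 4 (884 against 712) and HFD 5 (709 against 562). It was below Gjc1 in ND 1, ND 3 and HFD 2.

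Panx1 was last in ND 3 and in all HFD libraries on the per-length scale. In ND 1 it held rank 3, at 1.13 against 0.881 for Gja5 and 0.369 for Gja1, and in ND 4 rank 4, at 1.29 against 0.0253 for Gja5. In ND, with a mean of 0.993 ± 0.383 (SD, n = 3), the per-length level of Panx1 was therefore within the spread of Gja1, at 2.498 ± 3.03, and of Gja5, at 1.20 ± 1.36.

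**Figure D3:**
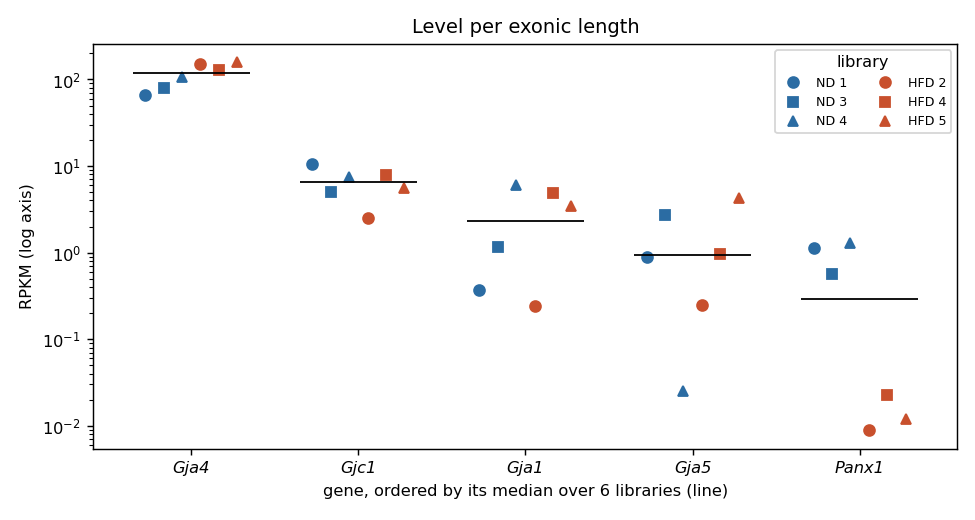
RPKM, reads per kilobase of exon scaled to depth (log axis), of the 5 members in each library, ordered by the median over 6 libraries (line). Gja4, at 66.3 to 158, stands above all others, Gjc1 is second in each library, and Gja1, Gja5 and Panx1 overlap.

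The genes most like each member over the 6 libraries were named by the Pearson correlation of log2 values among 10352 genes, as a description without a test, since with 6 points some of so many genes must come close. For Gjc1 these were Slain2, a microtubule-associated protein (r = 0.994), and Cox4i2, a cytochrome oxidase isoform abundant in pericytes and one of the mural markers (r = 0.992). Cox4i2 had 834, 415 and 562 normalized counts in ND 1, ND 3 and ND 4 and 328, 609 and 515 in HFD 2, HFD 4 and HFD 5, the same order as Gjc1. For Gja4 they were Hnrnph2, an RNA-binding protein (r = 0.995), and Slc35b3, a nucleotide sulfate transporter of the Golgi (r = 0.993). For Gja1 they were Usp16, a histone deubiquitinase (r = 0.992), and Pfn2, an actin-binding profilin (r = 0.987). For Gja5 they were Rbm17, a splicing factor (r = 0.997), and Tti2, a co-chaperone of large kinases (r = 0.994). For Panx1 they were Ppp1cc, a catalytic subunit of protein phosphatase 1 (r = 0.993), and Btnl9, a butyrophilin-like surface protein (r = 0.992). Panx1, Ppp1cc and Btnl9 each fell into the same clusters by diet, so these last values describe the gap between diets rather than a relation within them. Gja4, Hnrnph2 and Slc35b3 were likewise each higher in every HFD library than in every ND library, so the gap between diets enters their correlations too.

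Over all genes, limma called 0 of 15655 at an adjusted p of 0.05, or 0%, and hence 0 of the 4 connexins. Before adjustment, 1240 genes or 7.92% had p under 0.05, and Gja4 was the single connexin among them. With edgeR's quasi-likelihood test on whole reads, 0 genes passed and 1462 had an unadjusted p under 0.05. DESeq2 called 276 genes, or 1.76%, out of 1630 with an unadjusted p under 0.05, and 0 of the 4 connexins were among its calls, Gja4 having an adjusted p of 0.0887. Groups of genes around the channels are given next by their counts, and in each of them 0 members passed limma over all genes, where the background was 0%.

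Of the genes that act on pannexin 1 or beside it, 7 of 10 tested had a log2 fold change above 0, against 52.8% of all tested genes, and 0 passed the test. Their median log2 fold change was 0.38, against 0.05 over all genes. That median was 0.084 over 12 genes with no filter, 0.14 over 9 genes with a minimum mean of 50, 0.16 without HFD 2 and 0.20 without ND 1. P2rx4, an ATP-gated cation channel of endothelium that also belongs to the purinergic genes, had 870, 1213 and 1441 normalized counts in ND 1, ND 3 and ND 4. Its HFD values were 3414, 1754 and 3384 in HFD 2, HFD 4 and HFD 5, all above ND, with a log2 fold change of 1.24 ± 0.37 (SE; limma adjusted p = 0.522). It was 1 of 2 members without overlap and higher in HFD, and 0 were without overlap and lower, against 8.12% and 5.93% of all tested genes.

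Among the 3 tested members with a log2 fold change below 0 were Trpv4, a calcium channel that responds to stretch, and Casp1, the inflammasome protease. Trpv4 had 334, 104 and 213 normalized counts in ND and 271, 2.42 and 26.6 in HFD. Its log2 fold change was −2.73 ± 1.52 and ranged from −4.33 to −1.17 with single libraries left out. Casp1 had a log2 fold change of −0.36 ± 0.63.

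Receptors and surface enzymes for extracellular nucleotides, the downstream side of ATP release, had 7 of 14 tested genes on each side of 0 and a median log2 fold change of −0.01. The median was −0.16 over 20 genes with no filter and 0.42 over 8 genes with a minimum mean of 50, so its sign depended on the filter. Entpd1, which encodes CD39 and breaks down ATP and ADP, had 1411, 1690 and 1806 normalized counts in ND and 2377, 1798 and 4037 in HFD (0.67 ± 0.35, limma adjusted p = 0.666). HFD 4 lay just below ND 4, so the diets overlapped. Nt5e, which encodes CD73 and makes adenosine from AMP, had 111, 451 and 284 in ND and 120, 98.2 and 40.3 in HFD (−1.62 ± 0.75, limma adjusted p = 0.644), with HFD 2 above ND 1. P2ry14, a receptor for UDP sugars, had 392, 485 and 23.8 in ND and 15.5, 12.9 and 13.7 in HFD (−3.49 ± 1.21, limma adjusted p = 0.564). All HFD values of P2ry14 were below all ND values, but ND 4 lay close to them, and leaving out single libraries gave −4.87 (without ND 4) to −2.72 (without ND 3). DESeq2 called P2ry14, at an adjusted p of 0.00243.

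Transcription factors and Notch genes linked to connexin transcription gave 7 of 18 tested genes above 0 and a median log2 fold change of −0.15. Of these, 3 were without overlap and lower in HFD and 0 without overlap and higher, against 5.93% and 8.12% of all tested genes. Dll4, the Notch ligand of arterial and sprouting endothelium, had 2022, 1782 and 1518 normalized counts in ND and 665, 875 and 774 in HFD. Its log2 fold change was −1.20 ± 0.29 (SE; limma adjusted p = 0.472), and DESeq2 called it at an adjusted p of 0.00694. Klf2, a factor induced by laminar flow, had 16224, 14143 and 11696 in ND and 9770, 10885 and 9301 in HFD (−0.48 ± 0.18, limma adjusted p = 0.576).

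Hey1, a target of Notch, was on the higher side with 3867, 1988 and 1856 normalized counts in ND and 3791, 3468 and 3690 in HFD (0.59 ± 0.33), where ND 1 lay above every HFD library. Fos, a part of AP-1, had a log2 fold change of 0.32 ± 0.20. Dll4 was thus lower in each HFD library while Gja4, an arterial gene, was higher in each, and Hey1 overlapped. Jag1, another Notch ligand, had 1128, 299 and 1435 normalized counts in ND and 598, 685 and 722 in HFD, which overlapped. A link between these genes was not tested.

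Scaffolds, kinases and trafficking proteins that act on connexins gave 14 of 23 tested genes above 0 and a median log2 fold change of 0.17, with 3 without overlap and lower and 0 without overlap and higher, against the same 5.93% and 8.12%. Without ND 1 that median was −0.037. Cdh5, the cadherin of endothelial junctions, had 23594, 26780 and 22755 in ND and 18493, 23519 and 14846 in HFD (−0.38 ± 0.19). Stambp, a deubiquitinase of endosomes, had 543, 155 and 797 in ND and 1638, 684 and 1336 in HFD (1.49 ± 0.68, and 0.80 without ND 3 to 1.97 without ND 4). Cav1, the coat protein of caveolae, had a log2 fold change of 0.41 ± 0.22 at 37215 to 79901 normalized counts. The diets overlapped for each of Cdh5, Stambp and Cav1.

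Other large-pore channels were on both sides of 0, with 3 of 6 tested genes above it and a median log2 fold change of −0.09, which was 0.18 over 8 genes with no filter and 0.046 without ND 1. Lrrc8c, a subunit of volume-regulated anion channels, had 2769, 1795 and 2175 normalized counts in ND and 2901, 3159 and 3127 in HFD, without overlap (0.47 ± 0.25, limma adjusted p = 0.678). Lrrc8d, another subunit, had a log2 fold change of 0.45 ± 0.55, which was −0.13 without ND 4. Calhm2, a channel that can pass ATP, had 324, 215 and 145 in ND and 83.5, 122 and 17.3 in HFD, without overlap (−1.92 ± 0.85, limma adjusted p = 0.639). Leaving out single libraries moved it from −2.47 (without HFD 4) to −1.09 (without HFD 5). Calhm5 had 293, 36.3 and 315 in ND and 228, 9.66 and 13.7 in HFD, which overlapped (−2.20 ± 1.41), and its log2 fold change lay between −3.60 (without HFD 2) and −1.38 (without HFD 4).

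**Figure D4:**
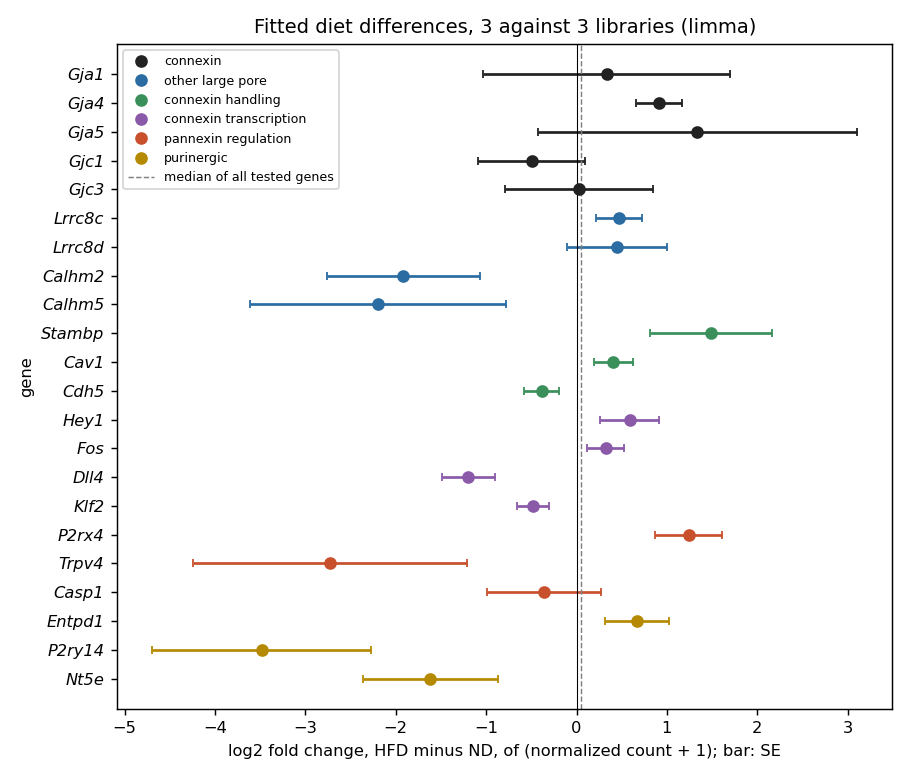
Log2 fold changes of HFD minus ND with their standard errors from the limma fit (points and bars) for the connexins above the filter and named genes of 5 groups, with 3 libraries per diet. Gja4 has a short bar at 0.91 and Gja1 and Gja5 long bars across 0, and the dashed line marks the median of all tested genes at 0.05.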

How the data were processed

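The authors deposited 1 table of a normalized signal, the reads per gene scaled by a factor of each library. Libraries were made, per the labels' protocols, from oligo(dT)-primed cDNA with template switching and a PCR step, and run on an Illumina NextSeq. The submitters' processing notes name HTSeq 0.6.1 and DESeq2, TopHat2 2.0.10 and Bowtie 1.0.0, SAMtools 0.1.19, FastQC 0.11.7 and cutadapt, and the GRCm38 build, without roles. The sources do not state the gene annotation or the strand setting.

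Every column stepped by the worth of 1 read (100% of values whole within 1e-06), so whole reads and depth were recovered. No 2 libraries agreed within sampling noise (chi-square per degree of freedom 84.3 or more), and 0 sample columns lacked a match. Tests were run on values transformed as log2(normalized count + 1), a scale that understates changes of low genes, over 15655 genes with a mean of at least 10, with limma 3.58.1 in R 4.3.3 (two-sided, intensity trend, Benjamini-Hochberg over all tested genes). Whole reads were tested with edgeR 4.0.16 and DESeq2 1.42.0. The script was tested on simulated data. Labels do not say that libraries of a diet differ in anything but the mouse, and p-values measure the spread between these libraries. Exonic lengths and positions come from GENCODE M21 (GRCm38), which may differ from the authors' annotation, and promoters from RefSeq.

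The members and gene lists were chosen with earlier results of these data known. Named were the 5 members, other family genes above the filter, the 2 genes of smallest p per direction in each of 5 lists with a mean of at least 50, the 2 genes most like each member and genes checking the cell type, of which a few are not reported here. Tried as alternatives were no filter or minimum means of 1 and 50, pseudocounts of 0.5 and 5, equal totals, TMM scaling, no trend, each library left out, and edgeR and DESeq2. The Panx1 read ratios under other settings and the scaling to pan-endothelial counts were added after seeing the data.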

Additional observations from a re-analysis of the deposited data

How the results depend on the processing

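No paired analysis was possible because the diets share a single mouse number, 4, which names different animals. The count of genes passing, 0 with limma, was 1 without an intensity trend (Tcf19) and 276 with DESeq2, and stayed at 0 under the other 14 settings, each left-out library included. The log2 fold change of Panx1 was −5.27 and lay between −5.71 and −5.02 with single libraries left out. It was −3.96 with a pseudocount of 5, −5.97 with edgeR, −6.09 with DESeq2 and −6.35 per pan-endothelial counts. The last also leaves out the pseudocount, which alone gave −6.02, and the HFD values of Panx1 rest on 1 to 3 reads per library. Gja4 and Gjc1 kept their direction under all settings run. Gja1 kept it except without ND 1, HFD 4 or HFD 5, with a range of −0.49 to 1.70 over left-out libraries, and at −0.00061 per pan-endothelial counts. Gja5 lay between −0.51 and 2.57 over left-out libraries. Gjc3, at 0.02, turned to −0.025 with TMM scaling, −0.090 with equal totals, −0.10 with edgeR and −0.11 with DESeq2, and ranged from −0.37 to 0.26 over left-out libraries. Over left-out libraries the range was −2.37 to 2.23 for Fcgr3, −0.13 to 0.92 for Lrrc8d, −0.86 to 2.54 for Pfn2, −0.12 to 0.89 for Rbm17, −0.13 to 0.78 for Tti2 and −0.048 to 0.45 for Usp16. The median log2 fold change of the genes acting on pannexin 1 was 0.084 with no filter and with a minimum mean of 1, and 0.14 with a minimum mean of 50, where other numbers of genes were tested, and 0.16 to 0.50 over left-out libraries. That of the nucleotide receptors and enzymes lay between −0.20 and 0.053 over left-out libraries, that of the large-pore channels between −0.31 and 0.046 and that of the genes acting on connexins between −0.037 and 0.33. That of the transcription genes was −0.20 to −0.0061 over left-out libraries. The cause of these shifts was not tested. Under equal totals the median over all genes was −0.06 in place of 0.05 on the log2 scale. At the depth of these libraries Panx1 levels within HFD cannot be told apart.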
